A study of Papio anubis with 8 samples.

Results

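Transcripts of 5 genes of adiponectin reception were followed through 8 RNA-seq libraries of fetal hippocampus in the olive baboon (Papio anubis). They are the adiponectin receptors ADIPOR1 and ADIPOR2, T-cadherin (CDH13), and the adaptors APPL1 and APPL2. They were taken by gene symbol, and each symbol had exactly 1 row among the 37053 genes of the deposited table. The fetuses were at 0.9 of term, and the study asked how the adiposity and leptin level of the mother relate to the fetal hippocampus. The labels give every library the same tissue and library kit and name no maternal group, so no library could be placed in a group and no groups were compared. The labels also do not give fetal sex, or say that each library came from its own fetus. Library titles are not uniform, since the one of AMB3 carries a different type of suffix from all the rest. Each p-value below is the share of all pairings of the libraries used that gave a correlation at least as strong. All 8 libraries were used unless a library is said to be left out. It treats the libraries as independent, which is not known.

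Adiponectin is a hormone that fat tissue secretes and that circulates as trimers and larger multimers. ADIPOR1 and ADIPOR2 are membrane proteins with their N-terminus inside the cell. They are known to act on AMP-activated kinase and on PPARα, and to carry a ceramidase activity. APPL1 binds the inner part of the receptors and links them to further signalling, and its relative APPL2 can bind APPL1 and the receptors. T-cadherin lacks the transmembrane and cytoplasmic parts of other cadherins, is held in the membrane by a glycolipid anchor, and binds the multimeric hormone. In the brain it is also known as an adhesion molecule of neurons and blood vessels. Adiponectin itself is made by fat cells, and its transcript is not a typical brain transcript.

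Libraries held between 40404878 and 71648654 counts. Levels are in CPM (counts per 1000000 of the library, its size adjusted by the trimmed mean of M-values). The log2 range of a gene is log2 CPM in the highest library minus log2 CPM in the lowest. Intervals are exact 95% Poisson intervals of the count and cover counting error only. Of the 37053 genes, 16874 passed a minimum of about 10 counts in every library and are called tested, and all 5 genes were among them. Transcript lengths were not used here, so levels of different genes are not compared. The tissue was checked by its markers. FIBCD1, a marker of the CA fields, lay between 9.0 and 399 CPM, and PROX1, a dentate granule cell transcription factor, between 14.4 and 96.6 CPM, so both were detected in every library but at very different levels. TTR, the defining product of the choroid plexus, stood at 2.47 CPM or less.

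**Figure D1:**
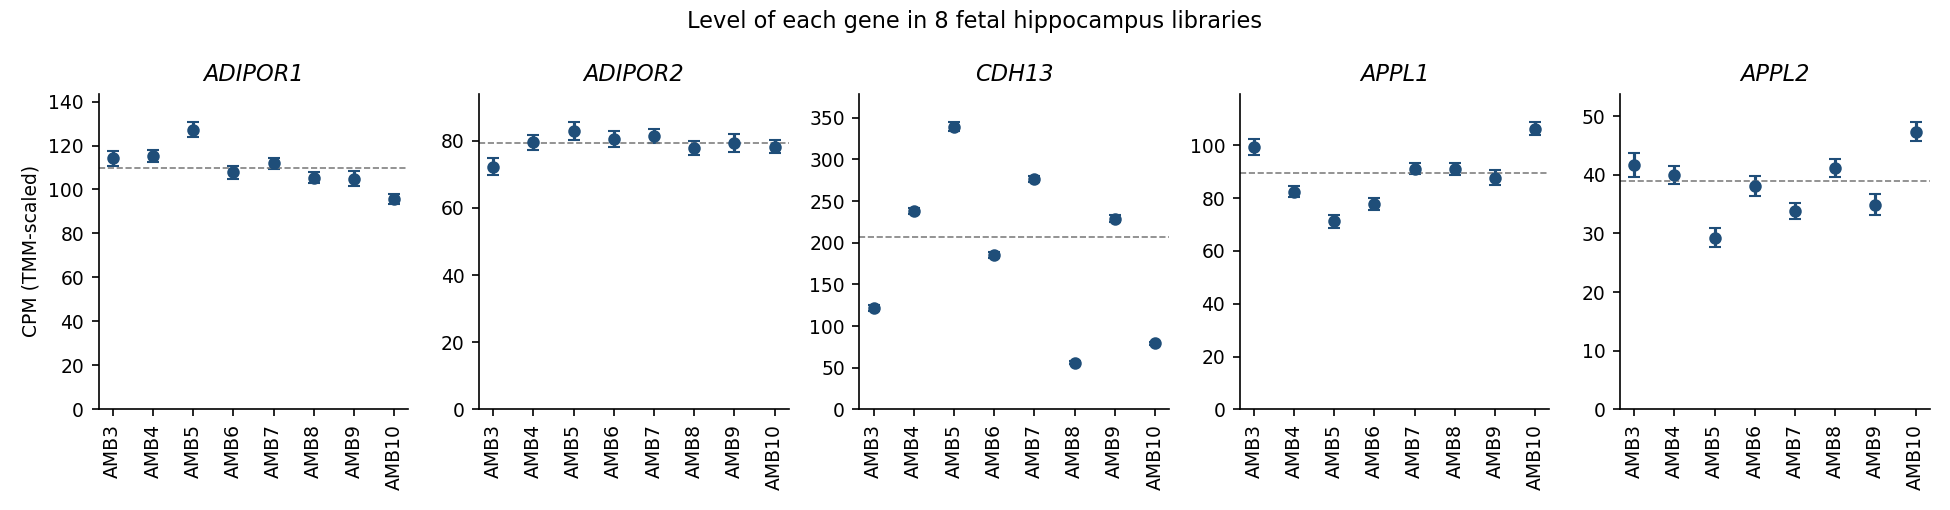
CPM of each gene (y axis, from 0) in each of the 8 libraries (x axis); points are single libraries, bars are exact 95% Poisson intervals and the dashed line is the median. CDH13 spans 56.1 to 339 CPM, whereas ADIPOR2 stays between 72.3 and 82.8 CPM.

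Of the 5 genes, CDH13 differed most between libraries and ADIPOR2 least. CDH13 spanned a 6.04-fold range, against 1.62-fold for APPL2, 1.49-fold for APPL1, 1.33-fold for ADIPOR1 and 1.14-fold for ADIPOR2. A log2 range of 1 or more was reached by 1 of the 5 genes, CDH13, and by 36.1% of all tested genes. CDH13 also passed a log2 range of 2, as did 9.0% of tested genes. The median log2 range of all tested genes was 0.77, and the other members lay below it.

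**Figure D2:**
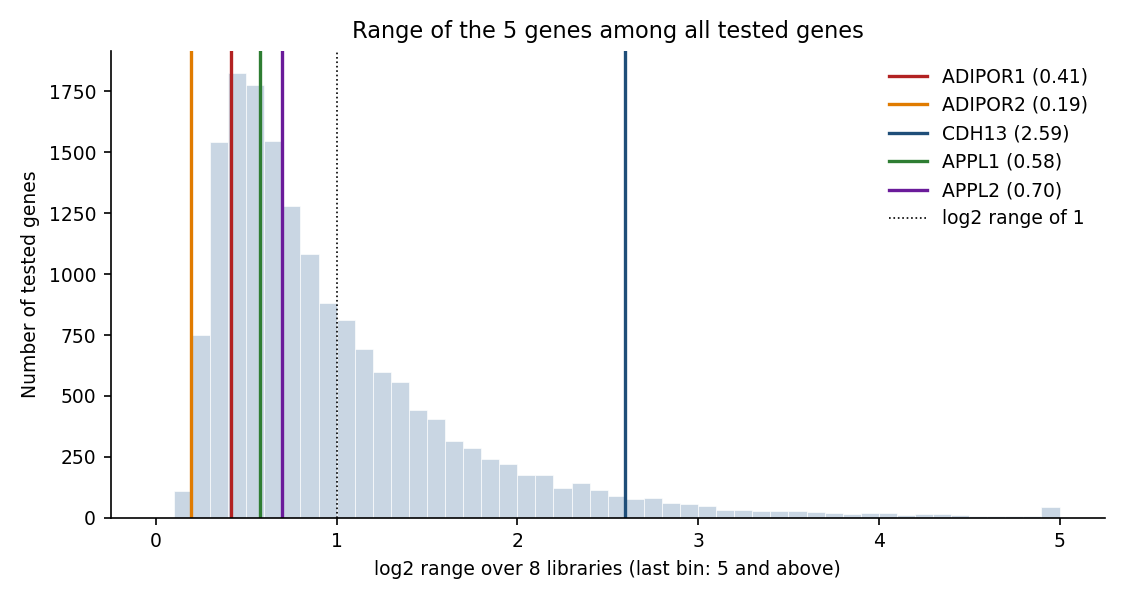
Number of tested genes (y axis) by log2 range over the 8 libraries (x axis, bins of 0.1, the last holding all larger ranges); coloured lines mark the 5 genes and the dotted line a range of 1. ADIPOR2 (0.19) sits at the left edge, ADIPOR1 (0.41), APPL1 (0.58) and APPL2 (0.70) in the bulk, and CDH13 (2.59) in the right tail.

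ADIPOR1, the receptor linked chiefly to AMP-activated kinase, lies on the + strand of chromosome 1 (158814410 to 158831537, on the assembly Panubis1.0). It stood at 127 CPM in AMB5, 115 in AMB4, 114 in AMB3, 112 in AMB7, 108 in AMB6, 105 in AMB8, 105 in AMB9 and 95.5 in AMB10. AMB5 was apart at the top and AMB10 apart at the bottom, while each neighbouring pair among the other libraries had overlapping intervals. The mean was 110.2 ± 9.32 CPM (SD, n = 8 libraries). The log2 range of 0.41 was smaller than that of 84.1% of tested genes. It shrank to 0.27 without AMB5 and to 0.28 without AMB10.

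ADIPOR2, the receptor linked chiefly to PPARα, lies on the + strand of chromosome 9 (1735890 to 1814403). It stood at 82.8 CPM in AMB5, 81.5 in AMB7, 80.5 in AMB6, 79.5 in AMB4, 79.2 in AMB9, 78.2 in AMB10, 77.9 in AMB8 and 72.3 in AMB3. From AMB5 down to AMB8 every neighbouring pair had overlapping intervals, and AMB3 (69.72 to 74.97 CPM) stood apart below them. The mean was 79.0 ± 3.15 CPM (SD, n = 8 libraries), a coefficient of variation of 3.99%. Only 95 tested genes had a smaller log2 range than its 0.19, or 0.563% of them. Without AMB3 the range was 0.088.

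The receptors were also set against each other within libraries. The ratio of ADIPOR1 to ADIPOR2 counts, which library scaling does not touch but which also depends on the lengths of the transcripts, was 1.58 in AMB3 (exact 95% interval 1.51 to 1.65), 1.54 in AMB5, 1.45 in AMB4, 1.37 in AMB7, 1.35 in AMB8, 1.34 in AMB6, 1.32 in AMB9 and 1.22 in AMB10 (1.18 to 1.26). The intervals of AMB3 and AMB10 did not overlap, which concerns counting error alone and not the spread between fetuses. In AMB3 the ratio was high with ADIPOR2 at its lowest level, and in AMB10 it was low with ADIPOR1 at its lowest level. Across the libraries ADIPOR1 and ADIPOR2 had a Pearson r of 0.24 (exact permutation p = 0.530) and a Spearman rho of 0.45 (exact permutation p = 0.267) in log2 CPM. Single libraries set that value: r was 0.82 without AMB3 (exact permutation p = 0.0226, adjusted p = 0.132) and -0.14 without AMB5.

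**Figure D3:**
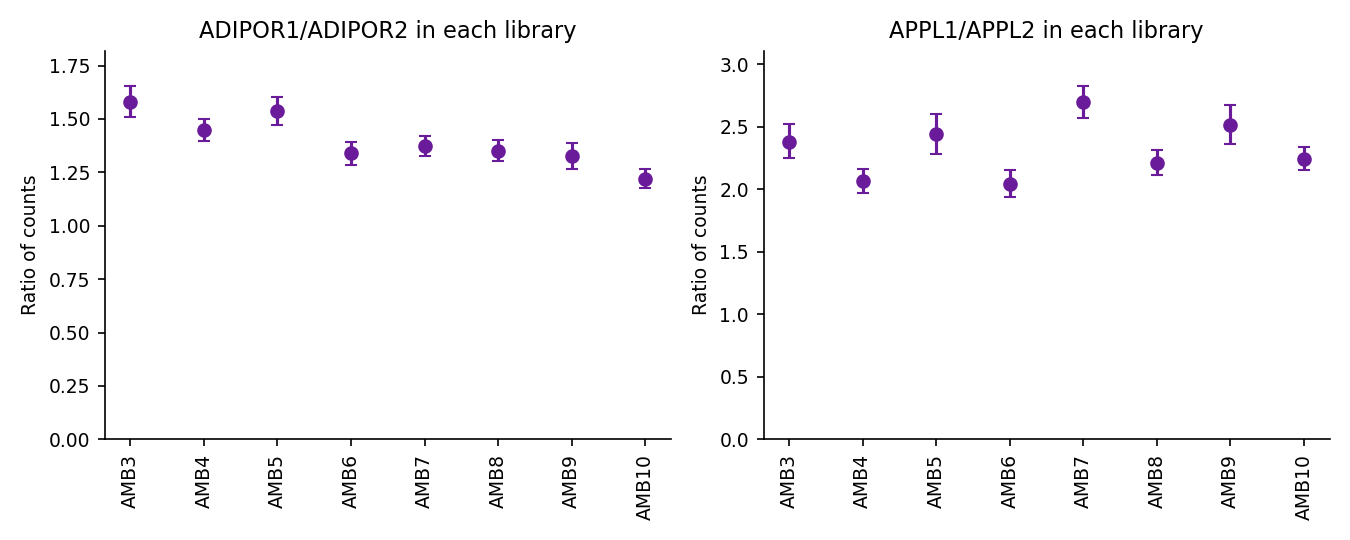
Ratio of counts within each library (y axis, from 0) for the receptors (left) and the adaptors (right) in the 8 libraries (x axis); bars are exact 95% binomial intervals. The receptor ratio runs from 1.22 in AMB10 to 1.58 in AMB3, and the adaptor ratio from 2.04 in AMB6 to 2.70 in AMB7.

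CDH13 occupies 1254348 bases on the - strand of chromosome 18 (6201083 to 7455430). It stood at 339 CPM in AMB5, 277 in AMB7, 238 in AMB4, 229 in AMB9, 185 in AMB6, 121 in AMB3, 79.1 in AMB10 and 56.1 in AMB8. No neighbouring pair in this order had overlapping intervals, the counts being between 3759 and 19789. The largest steps were from AMB6 to AMB3 and from AMB3 to AMB10 (0.61 and 0.62 in log2 CPM), so that AMB3, AMB10 and AMB8 formed a low end. Of all tested genes, 696 (4.12%) had a log2 range as large as its 2.59. The range was 2.10 without AMB8 and no smaller when any other single library was left out. In the authors' deposited log2 values CDH13 ran from -0.52 in AMB8 to 2.11 in AMB5. AMB3, AMB8 and AMB10 are also the trio on whose median those deposited values are set to 0, as tested on the 15582 genes whose count exceeded 20 throughout. The labels give no reason for that choice of 3, and no comparison was built on it.

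The nearest tested genes on either side of CDH13 had smaller ranges. HSBP1, a regulator of the heat shock factor that lies 11265 bases from it, lay between 253 and 345 CPM (log2 range 0.45). MPHOSPH6, the nearest tested gene on the other side at 375094 bases, lay between 31.99 and 43.9 CPM (log2 range 0.46). The uncharacterized noncoding gene LOC108583576 overlaps the end of CDH13 on the opposite strand. It had no count in AMB8 and at most 131 counts in a library, against at least 3759 for CDH13. Its log2 range of 6.56 was larger than that of CDH13, but the filter on low counts left it out. Whether reads were counted by strand is not stated in the labels or headers.

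The profile of CDH13 over the 8 libraries was shared with many genes. Of 12931 tested genes with a symbol and a median of at least 1 CPM, 392 (3.03%) had a Pearson r of at least 0.9 with it, against 22 for ADIPOR1, 30 for ADIPOR2, 152 for APPL1 and 180 for APPL2. These correlations are descriptions over 8 libraries, which differ in depth and in the levels of cell type markers, and all genes were read in the same libraries. The closest were GUCY1A1, a subunit of the nitric oxide receptor guanylate cyclase (r = 0.99), COBL, an actin nucleator (r = 0.99), MYRIP, which links Rab27 to myosin (r = 0.99), JCAD, a junction protein of endothelium (r = 0.99), and SMARCA2, an ATPase of the SWI/SNF chromatin remodeller (r = 0.99). GUCY1A1 stood at 72.5 CPM in AMB5, 61.3 in AMB7, 58.4 in AMB4, 53.5 in AMB9, 39.2 in AMB6, 28.5 in AMB3, 20.5 in AMB10 and 16.4 in AMB8. This is the same order of libraries as for CDH13. COBL ran from 40.1 CPM in AMB8 to 242 in AMB5, a log2 range of 2.59 like that of CDH13, whereas SMARCA2 ran only from 210.1 to 410.3 CPM. The opposite profile was shown by SCUBE2 (r = -0.99), by DPF3, another SWI/SNF component (r = -0.98), and by the neuronal transcription factor NHLH2 (r = -0.98). NHLH2 reached 6.21 CPM in AMB8 and 6.10 in AMB10, followed by 2.90 in AMB3, and lay between 0.875 and 1.95 CPM in the other libraries.

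**Figure D4:**
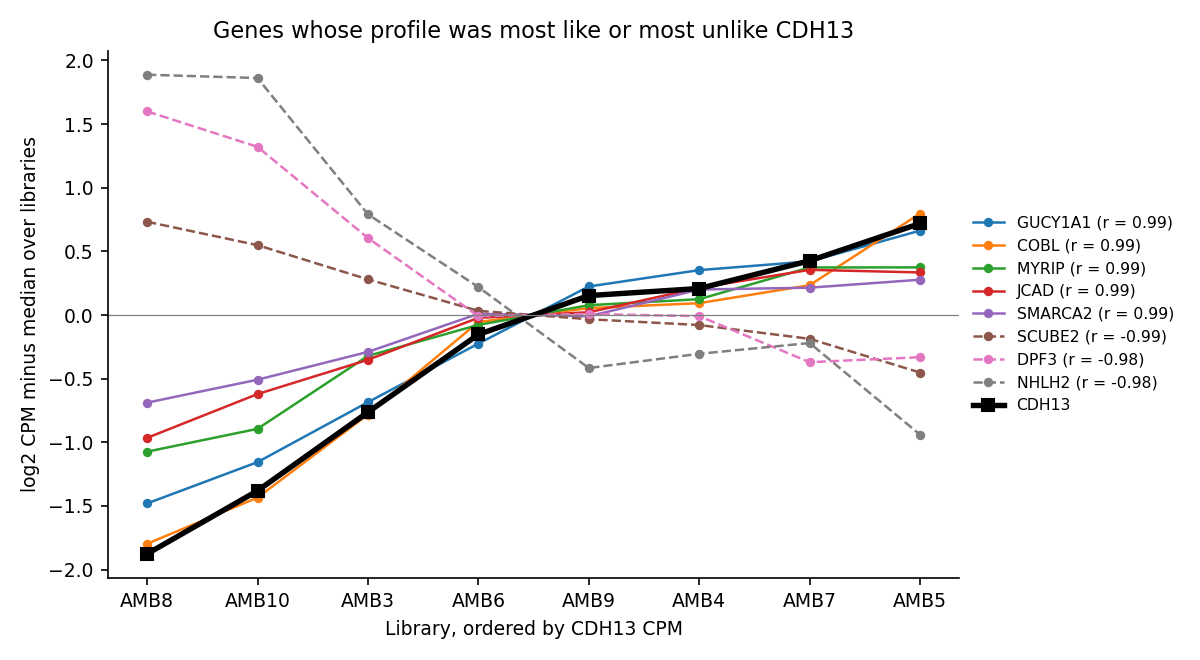
log2 CPM minus its median over libraries (y axis) for CDH13 (black squares), the 5 genes with the highest Pearson r (solid lines) and the 3 with the lowest (dashed lines), with libraries ordered by CDH13 (x axis). AMB8, AMB10 and AMB3 lie below the median for CDH13 and above it for SCUBE2, DPF3 and NHLH2.

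APPL1, the adaptor that binds the receptors, lies on the - strand of chromosome 2 (83008346 to 83054625). It stood at 106 CPM in AMB10, 99.2 in AMB3, 91.2 in AMB7, 90.9 in AMB8, 87.7 in AMB9, 82.5 in AMB4, 77.6 in AMB6 and 71.2 in AMB5. AMB7, AMB8 and AMB9 could not be told apart from their neighbour among them by counting error, and the other steps exceeded it. The mean was 88.3 ± 11.3 CPM (SD, n = 8 libraries), and 66.7% of tested genes had a log2 range as large as its 0.58. ASB14, which overlaps one end of APPL1 on the other strand, had at most 12 counts in a library. Genes with the most similar profile were ZNF770, a zinc finger gene (r = 0.99), the casein kinase CSNK1G3 (r = 0.98), the deubiquitinase USP46 (r = 0.98), the scavenger receptor SCARA5 (r = 0.98) and CDC37L1 (r = 0.97). The least similar were the sulfotransferase CHST10 (r = -0.97), PTS, an enzyme of tetrahydrobiopterin synthesis (r = -0.96), and the neuronal splicing factor NOVA1 (r = -0.96).

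APPL2 lies on the - strand of chromosome 9 (99565493 to 99627486). It stood at 47.3 CPM in AMB10, 41.6 in AMB3, 41.1 in AMB8, 39.95 in AMB4, 38.1 in AMB6, 34.9 in AMB9, 33.8 in AMB7 and 29.2 in AMB5. AMB10 was apart at the top and AMB5 apart at the bottom, and each neighbouring pair of the libraries in the middle had overlapping intervals. The mean was 38.2 ± 5.58 CPM (SD, n = 8 libraries), and 55.5% of tested genes had a log2 range as large as its 0.70. Its neighbour WASHC4, a subunit of the endosomal WASH complex that lies 4168 bases away, had the same extremes, with 18.8 CPM in AMB5 and 41.4 in AMB10. The nearest tested gene on the other side, C9H12orf75 at 73282 bases, had other extremes, with 4.02 CPM in AMB7 and 9.40 in AMB8. The most similar profiles were those of the motor protein MYO6 (r = 0.98), the repressor of neuronal genes REST (r = 0.97), BVES (r = 0.97), ITPRID2 (r = 0.97) and the lysophosphatidic acid receptor LPAR3 (r = 0.97). REST lay between 5.36 CPM in AMB5 and 13.9 in AMB10. The least similar were C20H19orf12 (r = -0.98), TACC2 (r = -0.98) and THOC5 (r = -0.97).

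The ratio of APPL1 to APPL2 counts was 2.70 in AMB7 (exact 95% interval 2.57 to 2.83), 2.51 in AMB9, 2.44 in AMB5, 2.38 in AMB3, 2.25 in AMB10, 2.21 in AMB8, 2.06 in AMB4 and 2.04 in AMB6 (1.94 to 2.15). AMB7 was therefore separated by more than counting error from AMB6, although the adaptors had the same extreme libraries. Over the 8 libraries their log2 CPM had a Pearson r of 0.77 (exact permutation p = 0.0269, adjusted p = 0.235 by Benjamini-Hochberg). Without AMB5 and AMB10, the libraries farthest from the median of APPL1, r was 0.17, so that the relation rests on them.

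AMB5 was an extreme library for 5 of the 5 genes, highest for ADIPOR1, ADIPOR2 and CDH13 and lowest for APPL1 and APPL2. Among all tested genes AMB5 was the highest or the lowest library in 33.4%. With library sizes taken as total counts alone, ADIPOR2 was highest in AMB7 and the other extremes stood as given. AMB5 had 45505304 counts and the lowest of the scaling factors, 0.955. Its part in these extremes was not tested.

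The genes closest in profile differed between the receptors. For ADIPOR1 they were RPAIN (r = 0.95), the neuronal TAGLN3 (r = 0.95), NIM1K, a kinase related to AMP-activated kinase (r = 0.94), the RNase P subunit POP5 (r = 0.94) and the palmitoyltransferase ZDHHC5 (r = 0.94), and the least similar were ZFHX4 (r = -0.95), the kinase ABL1 (r = -0.94) and the amino acid transporter SLC7A2 (r = -0.94). For ADIPOR2 they were AZIN2 (r = 0.97), the synaptic zinc transporter SLC30A3 (r = 0.97), NPPA (r = 0.97), FHL3 (r = 0.97) and the calcium channel subunit CACNA1A (r = 0.96), and the least similar were STARD8 (r = -0.97), CPQ (r = -0.96) and CHODL (r = -0.96). All of these closest genes of ADIPOR2 were lowest in AMB3, as ADIPOR2 was, and its least similar genes were all highest there. Without AMB3 the log2 range of ADIPOR2 was only 0.088, and the profiles were not compared again without that library. SLC30A3 had 43.1 CPM in AMB3 but spanned a log2 range of 2.01 against 0.19 for ADIPOR2. A high r therefore came with very unequal sizes of difference.

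Each pair of the 5 genes, and each gene against the score of each of 13 marker lists, was related over the 8 libraries. To score a list, log2 CPM of each tested gene was centred on its own median and the median over the list was taken in each library. Of these 75 relations 70 were computed, the dentate granule cell score being left out because it fell into separate clusters of libraries. By Pearson's r with exact permutation p-values, adjusted by Benjamini-Hochberg over the 70, 3 relations had an adjusted p of at most 0.05, and by Spearman's rho 2 had. None of the 10 pairs among the 5 genes was among them. By Pearson's r CDH13 and APPL2 had the strongest relation of these pairs, an r of -0.80 (exact permutation p = 0.0141, adjusted p = 0.165) and a rho of -0.86 (exact permutation p = 0.0107, adjusted p = 0.0833), with r at -0.84 without AMB8 and AMB10. By rho, ADIPOR2 with CDH13 (0.86) and ADIPOR2 with APPL2 (-0.86) were as strong (exact permutation p = 0.0107, adjusted p = 0.0833 for each). The genes and lists were chosen with earlier results of these data known, and the adjustment does not cover that choice.

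APPL2 moved with the astrocyte genes, with r = 0.92 (exact permutation p = 0.00119, adjusted p = 0.0417) and rho = 0.95 (exact permutation p = 0.00114, adjusted p = 0.0399). Without AMB5 and AMB10 r was still 0.92. When any single library was left out the adjusted p exceeded 0.05 (0.0595 to 0.233). All 8 listed astrocyte genes were tested, none was at 0 in a library, and their summed level was lowest in AMB7 (2886 CPM) and highest in AMB10 (6321 CPM). GFAP, the intermediate filament of astrocytes, ran from 551 to 1610 CPM, and the glutamate transporter SLC1A2 from 1149 to 2268 CPM, between the same libraries. In bulk tissue, more astrocytes and more APPL2 RNA per cell cannot be told apart. APPL2 was also related to the CA field score by rho (0.95, exact permutation p = 0.00114, adjusted p = 0.0399) but not by r (0.81, exact permutation p = 0.0165, adjusted p = 0.165). Other lists moved with APPL2 without passing the threshold. With the interneuron score rho was -0.86 (exact permutation p = 0.0107, adjusted p = 0.0833). With myelinating oligodendrocyte and precursor scores r was 0.68 and 0.66 (exact permutation p = 0.0639 and 0.0740, adjusted p = 0.268). Without AMB3 r was 0.96 with myelinating oligodendrocyte genes and 0.92 with astrocyte genes (exact permutation p = 0.00179 and 0.00476, adjusted p = 0.116 and 0.124).

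CDH13 was higher where interneuron genes were higher and where CA field genes were lower. With the interneuron score r was 0.87 (exact permutation p = 0.00109, adjusted p = 0.0417) and rho 0.83 (exact permutation p = 0.0154, adjusted p = 0.108), and without AMB8 and AMB10 r was 0.63. With the CA field score r was -0.90 (exact permutation p = 0.00211, adjusted p = 0.0492) and rho -0.88 (exact permutation p = 0.00724, adjusted p = 0.0833), and without AMB8 and AMB10 r was -0.69. Both relations thus weaken without the libraries of lowest CDH13. The CA field relation missed the threshold with DESeq2 size factors (adjusted p = 0.0515), with the deposited log2 values (0.0573), without the filter (0.0527) and in each of the 7 fits that left out a library and gave an r. The interneuron relation missed it with total counts (adjusted p = 0.0642) and when any library but AMB4 was left out. The 9 interneuron genes were all tested and summed to 383 CPM in AMB8, 552 in AMB10 and between 675 and 872 elsewhere, with the GABA-synthesizing enzyme GAD1 between 129 and 311 CPM and the neuropeptide SST between 59.0 and 232. Members chosen after their values were seen did not all follow: PVALB was highest in AMB10 (5.44 CPM) and lowest in AMB5 (2.58 CPM), and GAD2 was higher in AMB3 (117 CPM) and AMB10 (105 CPM) than in AMB5 (84.0 CPM). The 8 CA field genes were all tested and summed to 676 CPM in AMB8, 640 in AMB10, 287 in AMB3 and between 155 and 234 elsewhere. FIBCD1 gave 399 CPM of the sum in AMB8 and 366 in AMB10. Without it the sums were 277 and 274 CPM there, 203 in AMB3 and between 146 and 165 elsewhere. WFS1 did not follow, with 64.0 CPM in AMB8 and 82.7 in AMB7. Nor did OCIAD2, chosen after its values were seen, with 13.8 CPM in AMB8 and 16.5 in AMB10. It had 25.1 CPM in AMB3 and 9.29 in AMB7. No gene of these lists was at 0 in a library. By rank ADIPOR2 went the same way as CDH13, without passing the adjusted threshold. Its rho was 0.88 with the interneuron score (exact permutation p = 0.00724, adjusted p = 0.0833). With the CA field and astrocyte scores its rho was -0.81 (exact permutation p = 0.0218, adjusted p = 0.127 for each). The r values of ADIPOR2 were 0.29, -0.47 and -0.66. With total counts alone its rhos were 0.43, -0.40 and -0.29.

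Other marker lists moved with CDH13 without passing the adjusted threshold. The r with the astrocyte score was -0.88 (exact permutation p = 0.00392, adjusted p = 0.0686) and -0.94 without AMB8 and AMB10. With the list of cortical layer and subicular genes it was 0.88 (exact permutation p = 0.00714, adjusted p = 0.1) and fell to 0.24 without those libraries. Of that list 8 of 9 genes were tested, and its summed level lay between 589 CPM in AMB8 and 1155 in AMB9. CUX2, an upper-layer transcription factor, spanned 12.05 CPM (AMB8) to 277 CPM (AMB7), and FOXP2 spanned 1.58 to 67.5 CPM over the same libraries. BCL11B, singled out after its values were seen, ran the opposite way, with its highest level in AMB8 (91.2 CPM) and its lowest in AMB7 (28.4 CPM), and FEZF2 had a log2 range of 0.41. The part of the mix of regions and cell types in the CDH13 levels was not tested.

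**Figure D5:**
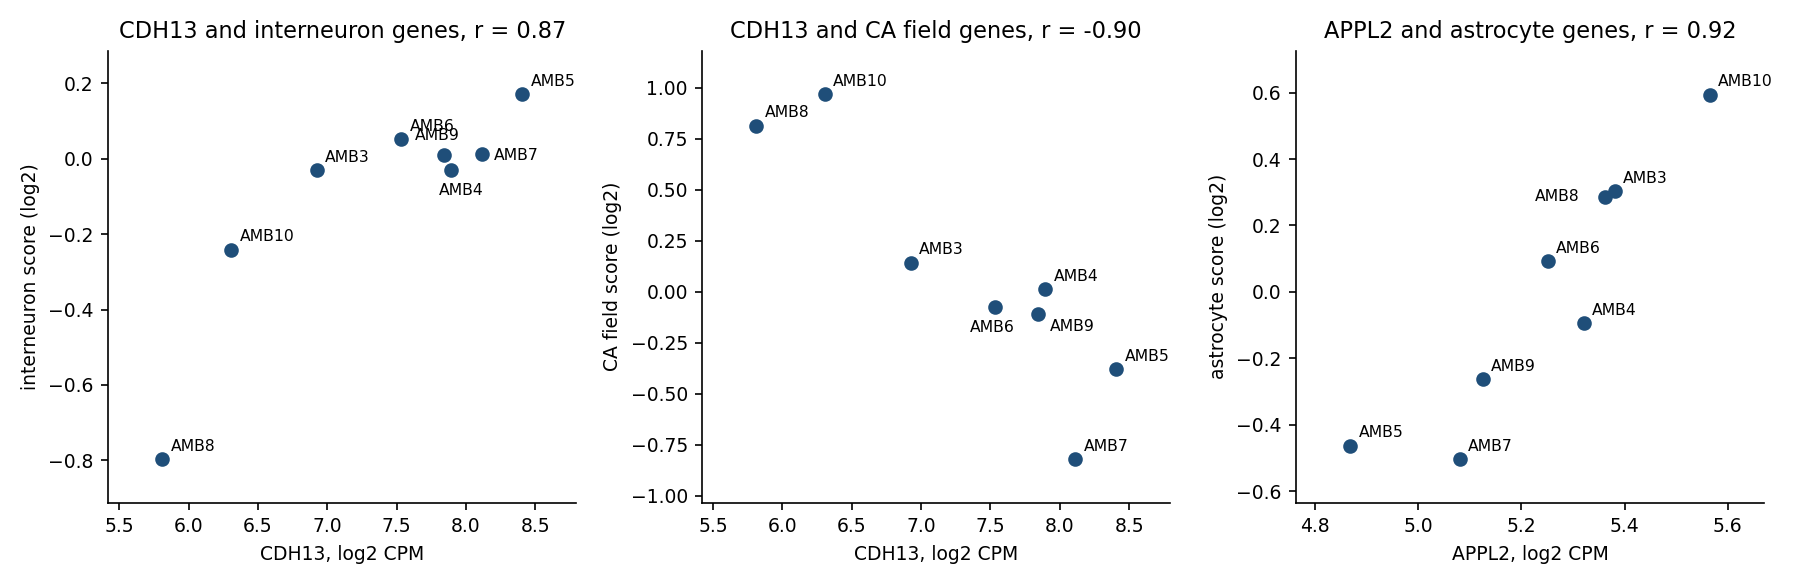
Score of a marker list (y axis, log2) against log2 CPM of a gene (x axis), 1 point per library, for CDH13 with interneuron genes (r = 0.87), CDH13 with CA field genes (r = -0.90) and APPL2 with astrocyte genes (r = 0.92). AMB8 and AMB10 hold the low end of CDH13, and without them its r falls to 0.63 and -0.69.

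The hormone's own transcript was near 0. ADIPOQ, which encodes adiponectin, had at most 20 counts in a library, 0.299 CPM in AMB8 and 0.265 in AMB10, and no count in AMB3, which allows up to 0.0738 CPM. Of 11 listed C1q/TNF relatives, ADIPOQ included, 9 were analysed and 7 were tested. A log2 range of 1 was reached by 4 of those, with a median range of 1.204. Among all tested genes 36.1% reached it, and the median was 0.77. C1QTNF6, among the relatives that reached it, had only 11 to 40 counts. C1QTNF4, a relative found in brain, lay between 21.0 and 59.5 CPM and C1QTNF1 between 13.1 and 23.3. C1QTNF5 lay between 2.97 and 5.14 CPM, and C1QTNF3 had the largest range of the list, from 0.791 CPM in AMB8 to 2.51 in AMB3.

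The PAQR family, whose members share the membrane fold of the receptors, was tested in full. A log2 range of 1 was reached by 3 of the 9, and the median range was 0.87, against 36.1% and 0.77 for all tested genes. PAQR5, among those past a range of 1, had only 13 to 51 counts. MMD lay between 416 and 558 CPM, PAQR4 between 97.3 and 135, and the progestin receptor PAQR8 between 79.0 and 152. PAQR9 varied most, from 5.05 CPM in AMB6 to 21.0 in AMB10. None of the 9 had a range as small as that of ADIPOR2, the smallest being 0.36.

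Enzymes of ceramide, the substrate of the receptors' ceramidase activity, reached a log2 range of 1 in 1 of 15 tested genes (of 19 listed). Their median range was 0.67, while all tested genes had 36.1% past a range of 1 and a median of 0.77. AMB10 was the highest library for 8 of the 15, against 16.7% of all tested genes. It was also the highest for 8 of 8 myelinating oligodendrocyte genes, 7 of 8 astrocyte genes and 5 of 9 PAQR genes. The lysosomal ceramidase ASAH1 ran from 123 CPM in AMB3 to 233 in AMB10, DEGS1, which makes ceramide from dihydroceramide, from 88.3 to 121, and the neutral sphingomyelinase SMPD3 from 138 to 256. SPHK1, a sphingosine kinase, was the tested member past a range of 1, with 2.44 to 6.95 CPM. SPTLC3, a subunit of the enzyme that starts ceramide synthesis, ran from 4 counts in AMB3 (0.0984 CPM) to 360 in AMB7 (5.04 CPM) and is not in this count, since the filter on low counts left it out.

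Among the partners that APPL proteins bind, 1 of 11 tested genes (of 12 listed) reached a log2 range of 1. The median range was 0.50, and all tested genes had 36.1% past a range of 1 and a median of 0.77. The early endosome GTPases RAB5B and RAB5C lay between 157 and 196 CPM and between 136 and 158 CPM. The netrin receptor DCC was the exception, with 161 CPM in AMB8, 151 in AMB10, between 66.8 and 84.0 in 5 libraries and 54.6 in AMB5.

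Among genes downstream of the receptors, 5 of 12 tested (of 13 listed) reached a log2 range of 1, against 36.1% of all tested genes. The median range was 0.84, against 0.77. CAMKK2, a kinase upstream of AMP-activated kinase, was at 186 CPM in AMB3, 250 in AMB10, 276 in AMB8 and between 370 and 466 elsewhere. The stress kinase MAPK14 lay between 99.5 and 142 CPM and the insulin receptor substrate IRS2 between 61.0 and 108. PPARA, the nuclear receptor linked to ADIPOR2, was low, at 1.40 CPM in AMB5 to 3.84 in AMB10, a log2 range of 1.43 where ADIPOR2 had 0.19.

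Set among cadherins, CDH13 had the largest range. Of 15 other tested cadherins (of 16 listed) 8 reached a log2 range of 1, against 36.1% of all tested genes. The median range was 1.07, against 0.77, and none reached that of CDH13. AMB8 was the lowest library for 8 of the 15, against 12.3% of all tested genes, and also for 7 of 9 interneuron genes and 6 of 8 cortical layer and subicular genes. CDH6 came closest in range (2.51) and had the same extremes, with 97.5 CPM in AMB5, 25.5 in AMB10 and 17.1 in AMB8. The more abundant CDH2, the N-cadherin of neural tissue, lay between 158 and 222 CPM, CDH8 between 119 and 172, and CDH11 between 110 and 148.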

How the data were processed

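Strand-specific libraries were made from 25 ng of total RNA, per the labels' protocols. The raw columns are estimated counts per RefSeq gene, 1 column a library, per the file headers. The authors' normalized columns are log2 values, and the submitters' processing notes name DESeq. The aligner, counter and build are not given in these sources. Coordinates of the 5 genes equal those of the RefSeq table for Panubis1.0.

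Estimated counts were rounded, filtered with filterByExpr (minimum count 10) and scaled with TMM in edgeR 4.0.16. log2 CPM uses a prior count of 2. The code for ranges and for exact tests over 40320 pairings was tested on simulated data. Relations were left out where a gap of over 0.5 of a range split the libraries with 2 or more on either side.

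The genes, 6 pathway lists and 13 marker lists were chosen with earlier results of these data known. Of 80 pathway and 98 marker genes, 75 and 96 were analysed. Named are each list's most abundant genes (3 per pathway list, 2 per marker list, there only beside a result) with its widest-ranging gene, the 5 most and 3 least similar profiles, and overlapping genes; some that the rule names are not reported here. ADIPOQ, TTR and flanking genes were added afterwards. Alternatives were DESeq2 1.42.0 size factors, total counts, deposited log2 values, a prior count of 0.5, no filter, and leaving out each library.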

Additional observations from a re-analysis of the deposited data

Results flagged for a closer look

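ADIPOR2 in AMB3 was the lowest library, at 6.18 in log2 CPM (72.3 CPM), and the next was 0.11 higher on that scale (77.9 CPM). Its gap to the next library made up 0.549 of the whole range of that gene, more than Dixon's 95% critical share for 8 samples. The lowest and the highest library were checked in this way for 7 measures (5 genes and 2 ratios). Chance alone flags about 1 in 20. AMB3 is also the library whose title carries a different type of suffix. Whether that difference bears on its low ADIPOR2 level was not tested.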

How the results depend on the processing

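No paired analysis was possible because no library has a group. Of 32 recomputations with other scalings, prior counts or filters over 9 results, 32 moved no range by more than 1 SD and no count by more than 1.5 times. CDH13 was the only one of the 5 genes with a log2 range of at least 1 in each of them. Leaving out each library in turn gave log2 ranges of 0.27 to 0.41 for ADIPOR1 (smallest without AMB5) and 0.088 to 0.19 for ADIPOR2 (smallest without AMB3). It gave 2.10 to 2.59 for CDH13. The number of relations with an adjusted p of at most 0.05 was 3, and between 2 and 3 under the other scalings, prior count and filter. Leaving out each library, which for these relations was chosen after seeing the data, gave 0 to 1 such relations. The 1 was CDH13 with interneuron genes without AMB4, and the cause was not tested. The relation of APPL2 with astrocyte genes kept an adjusted p between 0.0399 and 0.0486 under those 5 settings and had an r of 0.88 to 0.96 when single libraries were left out (adjusted p 0.0595 to 0.233). For CDH13 the adjusted p lay between 0.0417 and 0.0642 with interneuron genes and between 0.0399 and 0.0573 with CA field genes under the same settings. At these depths counting error limits ADIPOQ, and also the order of libraries in ADIPOR2, ADIPOR1 and APPL2, where 1, 2 and 2 of 7 neighbouring pairs had intervals apart.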
